A study of Sus scrofa domesticus with 4 samples.

Results

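MYLK, MYL9, MYL6, RHOA, PPP1CB and PPP2CA encode myosin light chains, a light chain kinase, a small GTPase and catalytic subunits of phosphatases. They are grouped here around the phosphorylation of myosin light chain. Their transcripts were examined in explants of pig myometrium, the contractile wall of the uterus, kept with or without orexin A (OXA). The members were all non-control array probes that the array design assigns to a RefSeq transcript of 1 of these 6 genes. This gave 25 of 43603 probes: 1 for MYLK, 1 for MYL9, 4 for MYL6, 3 for RHOA, 10 for PPP1CB and 6 for PPP2CA. The tissue came from 4 gilts (Large White x Polish Landrace, 7 to 8 months old) on days 15 to 16 of pregnancy, and pieces from the middle of the uterine horns were kept in culture medium for 2 h and then for 24 h with OXA or with no addition. The sample labels give the OXA concentration as 10 nM and the series' design text as 10 µM, and the labels do not settle which was used. RNA of OXA-treated and of non-treated tissue was hybridised together on each of 4 dual-colour Agilent arrays, and the sample labels put OXA in Cy5 on arrays 1 and 3, with the dyes swapped on the other two. The labelling protocol instead words OXA as Cy5 throughout. The labels give 4 separate culture experiments, each in duplicate, but not which gilt supplied which channel, so p-values measure the spread between arrays. An explant holds every cell type of the cut piece, and in such bulk samples fewer cells of a type and less RNA per cell cannot be told apart.

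Smooth muscle contracts when myosin light chain kinase, encoded by MYLK and switched on when calcium rises, phosphorylates the regulatory light chain of smooth muscle myosin, encoded by MYL9. The essential light chain, encoded by MYL6, stabilises the neck of the myosin head and is not the kinase's substrate. Myosin light chain phosphatase reverses the reaction: its catalytic subunit is encoded by PPP1CB, and signalling from the small GTPase RHOA restrains it, which sensitises the muscle to calcium. PPP2CA encodes a catalytic subunit of protein phosphatase 2A, a broad serine and threonine phosphatase. In the uterus this system serves contraction during labour, and the muscle is kept largely quiet in early pregnancy.

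All 25 probes were well above background in both channels of all 4 arrays, none carried an outlier flag and none was saturated. The share of the array's probes that exceeded background clearly was 39.9% to 49.7% with OXA and 41.5% to 61.1% without. Testing was limited to the 19500 probes of the whole array that, in either condition, exceeded background clearly on 3 or more arrays. Ratios are the deposited log2 values of OXA over non-treated, so that a value below 0 means a lower signal with OXA. Across tested probes these ratios did not run alike on all arrays: array 1 correlated with array 4 at r = 0.62 and with array 2 at r = -0.59. The pair with OXA in Cy3, arrays 2 and 4, had r = -0.38. Array 3 had r = 0.23 with array 1, -0.30 with array 2 and -0.06 with array 4. These correlations run across probes, which are not independent replicates. Since the sample labels and the labelling protocol differ on the dyes of arrays 2 and 4, the direction of these arrays is not settled. The estimates are also given with both turned, as the protocol words it, and with each turned alone. Turning array 2 alone or array 4 alone follows neither source. Array 2 had r below 0 with every other array in these same ratios, so estimates with it turned are no independent support. The limma test adjusts p-values by Benjamini-Hochberg over all 19500 probes, with a threshold of 0.05, and its model has a term for dye bias. Its p-values and intervals thus rest on the spread between arrays of the same dye orientation, drawn towards that of all probes. The SD beside a mean is the plain spread over the 4 arrays.

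limma called 0 of the 25 member probes (adjusted p = 0.998 for the lowest), and 0 of all 19500 probes, a background of 0% (234 at an unadjusted p under 0.05). As a description, 22 of the 25 probes averaged below 0, with a median of -0.39 against -0.02 over all tested probes. The ratio was below 0 on all 4 arrays for 7 of the 25 (28.0%), against a background of 3.76%, and above 0 on all 4 for 0 of 25, against 3.96%. These 7 probes belonged to PPP2CA (4), PPP1CB (2) and MYL6 (1). Probes of one gene measure the same transcript, so the 7 are not independent. The members were also chosen with earlier results of these data known. Their shares beside a background, here and below, are therefore descriptions and not tests. At an unadjusted p under 0.05, limma had 2 member probes, both of PPP1CB and both lower with OXA, against a background of 0.374% for lower probes.

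**Figure D1:**
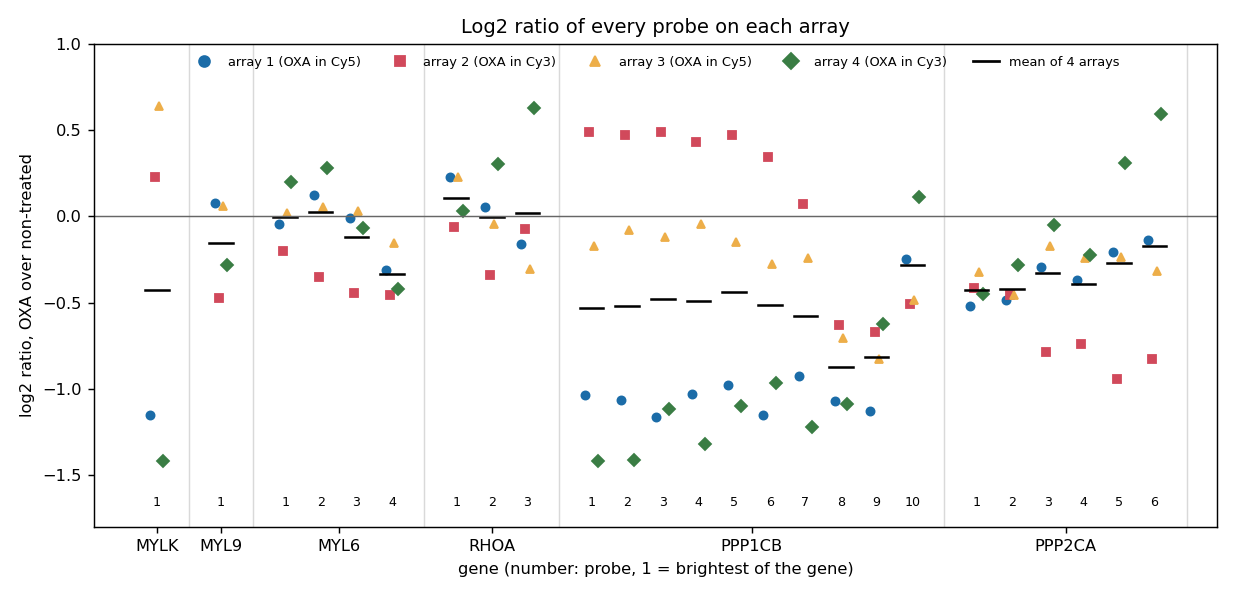
Log2 ratio of OXA over non-treated (y axis) for each of the 25 probes on each of 4 arrays (symbols), grouped by gene and ordered by brightness within a gene, with the mean of 4 arrays as a bar. All 10 PPP1CB and all 6 PPP2CA probes average below 0, and means of MYL6 and RHOA probes lie between -0.34 and 0.11. PPP1CB probes 1 to 7, PPP2CA probes 5 and 6 and the MYLK probe spread over more than 1 unit between arrays.

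MYLK, the kinase, was measured by 1 probe, designed on a predicted transcript. Its processed signal, the scanner's background-subtracted and dye-normalized intensity, was 27251 in non-treated and 12259 in OXA tissue on array 1 and 47402 against 17764 on array 4. On array 2 it was 12673 against 14871, and on array 3 it was 11407 against 17777. The OXA signal was thus lower on arrays 1 and 4 and higher on arrays 2 and 3, and both conditions overlapped. The spread lay mainly in the non-treated channel, whose 4 signals covered a 4.16-fold range, while the OXA signals covered a 1.45-fold range. The ranges were 3.39-fold and 1.42-fold after each channel was divided by its median. The log2 ratio was -1.15, 0.23, 0.64 and -1.42 on arrays 1 to 4. Its mean was -0.42 ± 1.01 (SD, n = 4), with a 95% interval of -1.47 to 0.62 in limma (adjusted p = 0.998). The estimate turned on single arrays: it was 0.02 without array 1, -0.01 without array 4, -0.84 without array 2 and -0.87 without array 3. These are limma estimates with the dye term, not plain means. The array left alone in its dye orientation counts in them for as much as the other pair.

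MYL9, the regulatory light chain that the kinase phosphorylates, was measured by 1 probe. Its signal in non-treated tissue was 114203, 60268, 53390 and 126270 on arrays 1 to 4. In OXA tissue it was 120292, 43495, 55575 and 103735, so arrays 1 and 4 were the brighter ones in both channels. The log2 ratio was 0.07, -0.47, 0.06 and -0.28, close to 0 on the arrays with OXA in Cy5 and below 0 on those with OXA in Cy3. The mean of -0.16 ± 0.27 (SD, n = 4) had a 95% interval of -0.77 to 0.46 in limma. The dye term of that fit, 0.22, was larger than the OXA term, and neither passed the test (adjusted p = 0.998 for OXA and 1 for dye). Dye and treatment were separated here by 2 arrays on each side only.

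MYL6, the essential light chain, was measured by 4 probes, and their means ran from -0.34 to 0.03. With the brightest probe the log2 ratio was -0.05, -0.20, 0.02 and 0.20 on arrays 1 to 4, from signals of 97106, 72960, 64847 and 114906 in non-treated and 94055, 63616, 65670 and 132094 in OXA tissue. Its mean was -0.01 ± 0.17 (SD, n = 4), with a 95% interval of -0.64 to 0.62, the value nearest 0 among the 6 genes. Array 2 was the lowest array for all 4 MYL6 probes, with -0.46 to -0.20. The fourth probe alone was below 0 on every array, with -0.31, -0.46, -0.15 and -0.42, and the other 3 averaged -0.12 to 0.03.

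RHOA, which acts upstream of the phosphatase, was measured by 3 probes with means of 0.11, -0.01 and 0.02. With the brightest probe, the signal was 16655, 14859, 11669 and 19431 in non-treated and 19530, 14231, 13651 and 19846 in OXA tissue. The log2 ratio was 0.23, -0.06, 0.23 and 0.03, above 0 on 3 of 4 arrays. The mean was 0.11 ± 0.15 (SD, n = 4) with a 95% interval of -0.51 to 0.72 in limma, or 0.70-fold to 1.65-fold. The third probe had 0.63 on array 4 and -0.30 to -0.07 on the others, so the 3 probes of RHOA did not run alike.

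PPP1CB, the catalytic subunit of myosin light chain phosphatase, averaged below 0 with all 10 probes, which target 1 RefSeq transcript. With the brightest, the signal was 12630, 6513, 11305 and 15861 in non-treated tissue on arrays 1 to 4 and 6164, 9160, 10025 and 5933 in OXA tissue. OXA was lower on arrays 1, 3 and 4 and higher on array 2, and both conditions overlapped. The log2 ratio was -1.03, 0.49, -0.17 and -1.42, with a mean of -0.53 ± 0.86 (SD, n = 4) and a 95% interval of -1.49 to 0.42 in limma (adjusted p = 0.998). Probes 2 to 7 in order of brightness gave the same picture. Over probes 1 to 7, ratios ran from -1.17 to -0.92 on array 1, from 0.07 to 0.49 on array 2, from -0.27 to -0.05 on array 3 and from -1.42 to -0.97 on array 4. The difference between arrays in these 7 probes was therefore larger than that between probes on any one array.

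Another 2 PPP1CB probes, 8 and 9, differed from these 7 in sign on array 2. Both also lay below all 7 on array 3, and probe 9 lay above all 7 on array 4. Probe 8 (A_72_P687355) had signals of 1149, 884, 971 and 939 in non-treated tissue and 547, 571, 595 and 442 in OXA tissue. Probe 9 (A_72_P357918) had 959, 722, 835 and 681 against 438, 453, 471 and 442. In both probes, each of the 4 OXA signals was below each of the 4 non-treated signals. This held for 2 of 25 member probes against a background of 0.241% of tested probes. After division by the channel median, a scaling chosen after these values were seen, it held for 3 of 25, PPP2CA's brightest probe being the third, against 0.313%. The log2 ratios of probe 8 were -1.07, -0.63, -0.71 and -1.09, with a mean of -0.87 ± 0.24 (SD, n = 4), or 0.55-fold, and a 95% interval of -1.52 to -0.23. Those of probe 9 were -1.13, -0.67, -0.83 and -0.62, with a mean of -0.81 ± 0.23, or 0.57-fold, and a 95% interval of -1.44 to -0.19. The unadjusted p in limma was 0.0161 and 0.0187 and the adjusted p 0.998 for each. On array 3, where the ratios of tested probes spread least (SD 0.44, against 0.78 to 0.84 on the other arrays), probes 8 and 9 lay at the lowest 2.58% and 1.74% of tested probes. On arrays 1, 2 and 4 they lay at 13.1%, 17.2% and 10.8% for probe 8 and at 11.6%, 15.6% and 24.5% for probe 9. Probe 10 had -0.25, -0.51, -0.49 and 0.12, at signals of 83 to 125, and averaged -0.28 ± 0.29. Where the 10 probes lie on the transcript, and whether they share a target with another gene, was not tested.

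**Figure D2:**
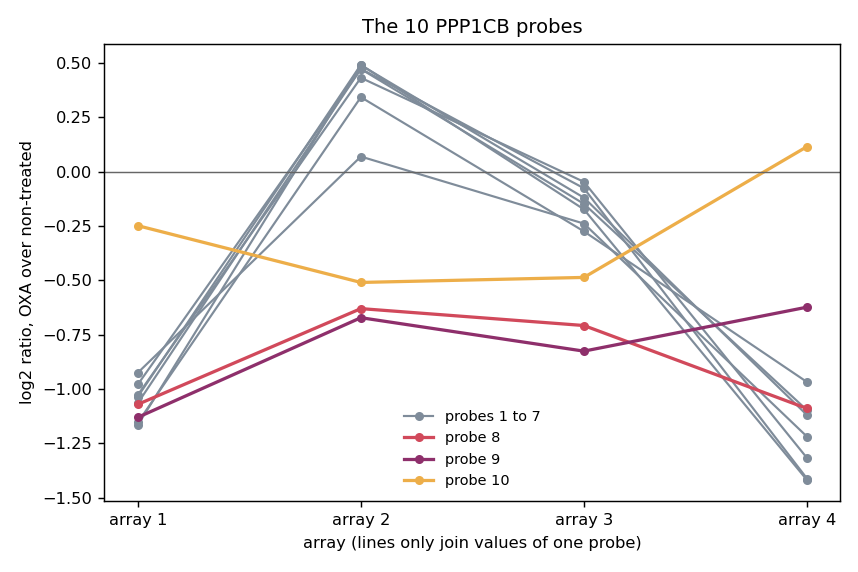
Log2 ratio of OXA over non-treated (y axis) of the 10 PPP1CB probes on arrays 1 to 4 (x axis, in no order of time or dose), with 1 line for each probe. Probes 1 to 7 lie above 0 on array 2 (0.07 to 0.49), while probes 8, 9 and 10 lie at -0.67 to -0.51 there, and probes 8 and 9 are below 0 on every array.

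PPP2CA, a catalytic subunit of the second phosphatase, also averaged below 0 with all its probes, and differed less from array to array than PPP1CB did with its brightest one. The signal of its brightest probe was 6740, 6209, 5111 and 7335 in non-treated tissue and 4700, 4655, 4081 and 5365 in OXA tissue. OXA was lower on every array, by a similar ratio, although the highest OXA signal exceeded the lowest non-treated one. The log2 ratio was -0.52, -0.42, -0.33 and -0.45, with a mean of -0.43 ± 0.08 (SD, n = 4), or 0.74-fold. The SD of 0.08 is the smallest of the 25 probes. limma, which draws each probe's variance towards that of all probes, gave a 95% interval of -1.05 to 0.19 and an adjusted p of 0.998. The second probe had -0.49, -0.46, -0.46 and -0.28. The 4 brightest probes were below 0 on every array, with means of -0.43 to -0.33. Probes 5 and 6 were below 0 on arrays 1 to 3 but had 0.31 and 0.60 on array 4, with means of -0.27 and -0.17.

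**Figure D3:**
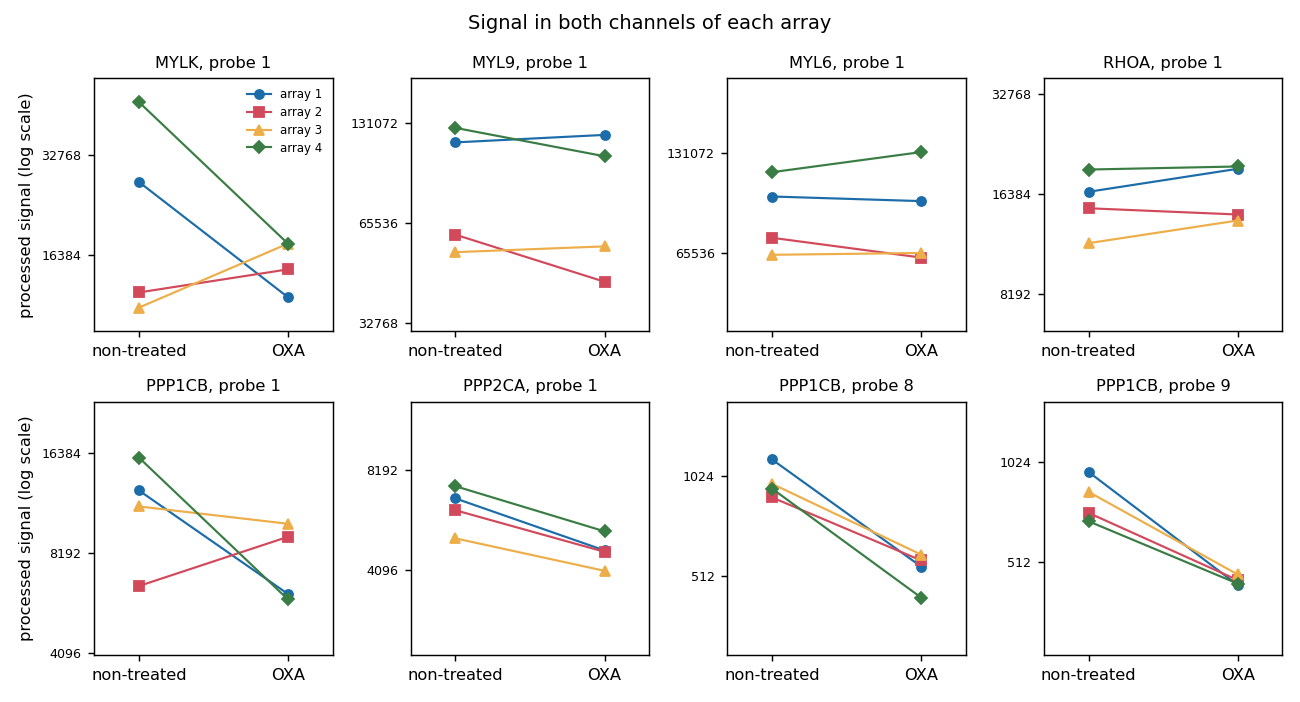
Processed signal (y axis, log scale, each panel with its own range of equal width) in non-treated and OXA tissue for the brightest probe of each gene and for PPP1CB probes 8 and 9, with a line for each array. PPP2CA and PPP1CB probes 8 and 9 slope down on all 4 arrays, PPP1CB probe 1 on arrays 1, 3 and 4, and MYLK on arrays 1 and 4 only.

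Differences between members within an array cancel a shift of the whole array, and 4 such pairs were compared with the brightest probe of each gene. The log2 ratio of MYLK minus that of PPP1CB, kinase against phosphatase, was -0.12, -0.26, 0.81 and 0.00 on arrays 1 to 4, with a mean of 0.11 ± 0.48 (SD, n = 4, exact sign-flip p = 0.875). Both ratios were low on arrays 1 and 4, so the kinase and the phosphatase probe did not move apart there. RHOA minus PPP1CB was 1.26, -0.55, 0.40 and 1.45, with a mean of 0.64 ± 0.92 (exact p = 0.375), above 0 on 3 of 4 arrays. That mean was 1.04 without array 2, 0.37 without array 4 and 0.19 if OXA was in Cy5 throughout. MYL9 minus MYL6 was 0.12, -0.27, 0.04 and -0.48, with a mean of -0.15 ± 0.28 (exact p = 0.5), and -0.037 without array 4. PPP1CB minus PPP2CA was -0.51, 0.91, 0.15 and -0.97, with a mean of -0.11 ± 0.82 (exact p = 0.875). Adjusted over the 4 pairs, each exact p was 0.875. The tests were two-sided, and with 4 arrays their smallest possible p is 0.13 after rounding, so they could not have called any pair.

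Other genes of the pathway came from 5 lists with 91 genes, of which 23 were named on the array and 22 were tested. limma called 0 of the 22 (0 at an unadjusted p under 0.05), with 14 brightest probes above and 8 below 0. No gene of the myosin chain list could be matched to a probe. Of 6 genes of protein phosphatase 1 and its regulators, 3 averaged above and 3 below 0. PPP1CC, another catalytic subunit of protein phosphatase 1, was below 0 on all 4 arrays with its single probe, at -0.45, -0.47, -0.35 and -0.38. Its mean was -0.41 ± 0.06 (SD, n = 4, limma adjusted p = 0.998). The third catalytic subunit, PPP1CA, had 0.26 ± 0.92, and PPP1R14A, the phosphorylated inhibitor of the myosin phosphatase known as CPI-17, had -0.06 ± 0.43. Of 6 genes of protein phosphatase 2A, its regulators and related phosphatases, 4 averaged below 0, with a list median of -0.14. SET, an inhibitor protein of this phosphatase, was below 0 on all 4 arrays, with -0.31 ± 0.29 (limma adjusted p = 0.998), and the scaffold subunit PPP2R1A had -0.33 ± 0.81.

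Of 16 smooth muscle markers, 8 were on the array and all of them were tested, among them ACTA2, DES and CNN1. The array medians of their log2 ratios were -0.23, -0.12, 0.27 and -0.41. These medians are low on arrays 1 and 4 like the ratios of MYLK and of the brightest PPP1CB probe, but below 0 also on array 2. The markers did not run alike on array 1, where DES (0.38), CNN1 (0.24) and MYOCD (0.12) were above 0 and the others below. On array 4 all of them were below 0. Macrophage markers, 9 tested of 13, had medians of 0.63, -0.79, 1.21 and 0.74, the opposite sign of PPP1CB probes 1 to 7 on each array. This holds for the medians and not for each marker: CD163 had -0.64, 0.30, 1.18 and -0.32, and CD14 had -0.06 on array 3. The other macrophage markers had the sign of the medians on each array. The summed signal of the macrophage markers ranged from 1635 to 11455 in OXA and from 1840 to 6477 in non-treated tissue. Uterine epithelium markers, 7 tested of 15, had medians of -1.19, 2.06, -0.90 and 1.53. Their summed signals were 2834 to 14713 in OXA and 3327 to 7132 in non-treated tissue. EPCAM, CDH1, MUC4 and CLDN3 were below 0 on the arrays with OXA in Cy5 and above 0 on the others. KRT8 (0.30) and SPP1 (0.09) were above 0 on array 1, and LCN2 was below 0 on all 4 arrays. In 1 of these genes a probe other than the brightest was higher at an unadjusted p under 0.05 in limma. Endothelium (4 of 10 tested) had -0.40, -0.18, 0.26 and 0.59, and fibroblasts (4 of 10 tested) had -0.11, -0.58, 0.23 and -0.46. Skeletal muscle markers had 3 of 10 tested, CKM, ACTA1 and MYLPF, while the probes of its myosin heavy chains MYH1, MYH2, MYH4 and MYH7 did not pass the filter. No blood marker was tested, with 4 of 9 on the array. The part of cell composition in the members' ratios was not tested.

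The genes nearest to each member in pattern were sought over the 8 channel levels, each scaled to its channel median, among 1984 other named genes. These are descriptions over 4 arrays with 2 linked channels each. PPP1CB was most like ARFIP1 (r = 0.98), the cell cycle gene CCNG1 (0.97) and GUCY1B3, a subunit of the nitric oxide receptor (0.96). MYLK was most like FAM8A1 (0.94), NR2F2 (0.94) and TPM1, a tropomyosin (0.91). For PPP2CA the nearest genes were PPP1CC (0.94), SERPING1 (0.94) and SRSF1, a splicing factor (0.91), all 3 with ratios below 0 on all 4 arrays. MYL9 came nearest to RNF5 (0.98), MYL6 to PCBD1 (0.98) and RHOA to SREBF1 (0.96). Between the members themselves, MYL9 and MYL6 were the most alike (r = 0.86), MYLK and PPP1CB had 0.59, and RHOA and PPP1CB had -0.50.

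Other readings of the dyes moved the estimates of most members. Turning array 2 alone or array 4 alone is a reading that neither the labels nor the protocol gives. With array 2 turned, PPP1CB's brightest probe had -0.78 (limma unadjusted p = 0.0192, adjusted p = 0.139) and MYLK had -0.54. In that reading 6 of the 25 member probes, all of PPP1CB, had an unadjusted p under 0.05, a share near the background of 26.1% of all tested probes. With array 4 turned they had 0.18 and 0.28 instead. With OXA in Cy5 on all arrays, a reading in which dye and OXA cannot be told apart, they had -0.07 and 0.17. PPP1CB probes 8 and 9, at -0.87 and -0.81 with the dyes as labelled, were below 0 but nearer to it under each of these readings, with -0.56 and -0.48 with array 2 turned, -0.33 and -0.50 with array 4 turned, and -0.01 and -0.17 with OXA in Cy5 throughout. PPP2CA's brightest probe had -0.22, -0.20 and 0.0055, in the same order. RHOA stayed between 0.09 and 0.14 in these 3. Without array 2, 9 of 10 PPP1CB probes and the MYLK probe had an unadjusted p under 0.05 in limma, against a background of 19.3% of all tested probes, and 0 of the 25 were called (lowest adjusted p = 0.0849, PPP1CB's brightest probe at -1.01). Without array 4 that PPP1CB probe had -0.06.

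**Figure D4:**
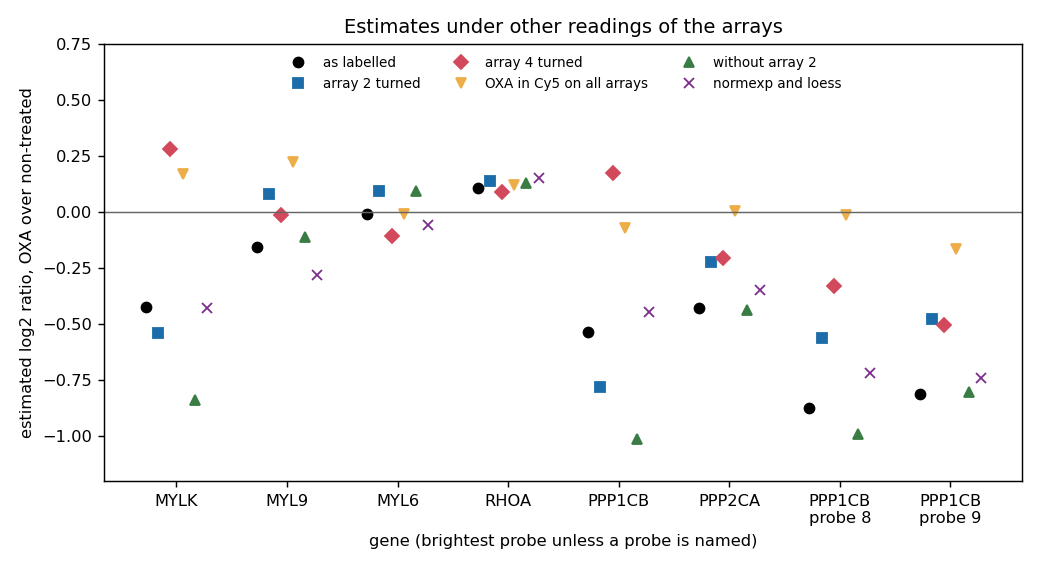
Estimated log2 ratio of OXA over non-treated (y axis) for the brightest probe of each gene and for PPP1CB probes 8 and 9, with the dyes as labelled and under 5 other settings (symbols). MYLK and PPP1CB change sign with array 4 turned (0.28 and 0.18), while PPP1CB probes 8 and 9 stay at or below -0.01.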

How the data were processed

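Per the file headers, the authors' scanner output came from Agilent Feature Extraction 10.7.3.1 and gives, for each spot, median intensity of signal and background, processed signal intensity, flags and the log10 ratio of Cy5 over Cy3. Log2 ratios of unstated direction make up the value table that the authors deposited. Against the scanner ratios their slope was 1.00 where OXA was in Cy5 and -1.00 where it was in Cy3, with 99.986% to 99.995% of values within 0.001, so they run as OXA over non-treated by the labelled dyes. Column medians over all probes were 0.10, 0.10, -0.19 and 0.07; over tested probes they were -0.05 to 0.01, and whether the authors centred them stays unknown. All arrays share 1 scan time, so no batch was fitted.

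Spots of a probe were averaged. RefSeq accessions were matched without versions to a gene table of assembly Sscrofa11.1, which named 6700 of 43603 probes from 3029 genes. limma 3.58.1 in R 4.3.3 fitted a term for OXA and one for dye (2 residual and 4.10 prior degrees of freedom), and the fit was tested on simulated data. The number of arrays limits the precision. The reference probe of a gene is its brightest by mean log2 processed signal, an order used to choose and number probes only. From each pathway list up to 3 genes with the smallest p and one sign on all arrays could be named, which gave PPP1CC and SET; other list genes were chosen after their values were seen. Members and lists were chosen with earlier results of these data known. Alternatives were 2 loess normalizations of the median signals, centring, filters, dye term, array weights, directions and leaving out each array. The members of 2 pathway lists are not reported here one by one.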

Additional observations from a re-analysis of the deposited data

Results flagged for a closer look

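Among 31 sets of 4 array values, Dixon's ratio set 1 array apart from the other 3 in 1, and chance sets apart about 5%. This was the second-brightest PPP2CA probe, with -0.28 on array 4 against -0.49 to -0.46 on the others.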

How the results depend on the processing

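limma called 0 member probes in every setting run; at an unadjusted p under 0.05 there were 2 with the settings of the report and 0 to 10 with the others, where 41 to 5095 of all probes passed it. Over all tested probes it called 0 in every setting that kept 4 arrays (at an unadjusted p under 0.05, 234 with the settings of the report and 192 to 5095 with the others), and 1 to 1093 when 1 array was left out, the highest without array 2. Then 1 array is alone in its dye orientation and counts for as much as the other pair. The dye term called 0 with 4 arrays and 12 to 1149 without 1 of them, the highest without array 4. RHOA kept its sign in all 15 alternatives, and PPP1CB probes 8 and 9 kept theirs in all 14. Signs changed as follows, and the cause was not tested. With OXA in Cy5 on all arrays, MYLK had 0.17, MYL9 0.22, PPP2CA 0.0055 and MYL9 minus MYL6 0.23. With array 2 turned, MYL9 had 0.080 and MYL6 0.093. With array 4 turned, MYLK had 0.28, PPP1CB 0.18, RHOA minus PPP1CB -0.085, MYL9 minus MYL6 0.093 and PPP1CB minus PPP2CA 0.38. With arrays centred, MYL6 had 0.0018. Leaving out each array gave limma estimates of -0.87 to 0.024 for MYLK and -0.11 to 0.094 for MYL6. For the differences it gave plain means of the arrays left, without a dye term. These were -0.44 to 0.18 for PPP1CB minus PPP2CA and -0.13 to 0.23 for MYLK minus PPP1CB. Normexp with loess gave -0.45 for PPP1CB and -0.28 for MYL9. Filters, the dye term and array weights left the estimates as they were by construction. The planned setting from mean signals was not run, since the files used here give medians. A replicate pairing needs no further block, because each ratio is taken within an array.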
